A study of Homo sapiens with 9 samples.

Results

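Chromatin accessibility was compared in MDA-MB-231 cells, a human triple-negative breast cancer line of mesenchymal character, to find regions whose peak was listed with shCtrl and with shEZH2 but was missing with shE2F1. Merging the lists of 6 libraries, 2 per hairpin, gave 112347 regions, and both shCtrl lists and both shEZH2 lists had a peak in 46944 of them. A total of 616 regions, 1.31% of the 46944, had a peak in neither shE2F1 list. The 616 regions were chosen by the peak calls themselves, so their presence with shCtrl and shEZH2 and their absence with shE2F1 are the rule and not a result, and no test was made on it. Knockdown cells were transduced with lentivirus carrying a short hairpin RNA for 24 h and kept in puromycin (2 μg/ml) for 72 h. The shCtrl cells received a control hairpin, and the other hairpins targeted EZH2, E2F1 or SUZ12. The DMSO cells served as the vehicle control of the cells treated with GSK126, an inhibitor of the methyltransferase activity of EZH2. There were 2 libraries for each of shCtrl, shEZH2 and shE2F1 and 1 each for shSUZ12, GSK126 and DMSO. Each knockdown rested on 1 hairpin, and nothing in the labels says that replicates came from separate cultures.

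E2F1 is a transcription factor that binds DNA with a DP partner, mostly at promoters of genes for DNA replication and the cell cycle, and is held in check by RB. EZH2 is the enzyme of Polycomb repressive complex 2 (PRC2) and methylates lysine 27 of histone H3 at silent genes, and SUZ12 is a core subunit of the same complex. ATAC-seq uses the Tn5 transposase to insert adapters into open chromatin, so that a peak marks an accessible promoter, enhancer or insulator. Enhancers lie far from promoters in many cases and are bound by factors such as AP-1, TEAD and RUNX.

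The sequences around the summits of 6 of the 616 regions are shown here because they carry the kinds of sites described below. Of these, 5 are among the strongest regions, and the DRP2 region is among the strongest at promoters. Each line gives 201 bases of the plus strand of GRCh38 centred on the summit in the first shCtrl list, and capitals mark a match to AP-1, TEAD, RUNX or CTCF letters on either strand. The region in an intron of MLLT3 (chr9:20579655-20579855) holds a RUNX match and the region nearest to NSMCE3 (chr15:29278514-29278714) holds an AP-1 and a TEAD match. The region nearest to AGK (chr7:141533356-141533556) holds a CTCF match, the region nearest to LUZP4 (chrX:115362761-115362961) a RUNX match, the region in an intron of NEK11 (chr3:131110218-131110418) a TEAD match, and the promoter region of DRP2 (chrX:101219155-101219355) an AP-1 match.
MLLT3: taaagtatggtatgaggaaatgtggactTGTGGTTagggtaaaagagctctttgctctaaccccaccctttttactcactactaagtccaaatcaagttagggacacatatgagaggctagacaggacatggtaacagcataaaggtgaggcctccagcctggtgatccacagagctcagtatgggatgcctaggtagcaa
NSMCE3: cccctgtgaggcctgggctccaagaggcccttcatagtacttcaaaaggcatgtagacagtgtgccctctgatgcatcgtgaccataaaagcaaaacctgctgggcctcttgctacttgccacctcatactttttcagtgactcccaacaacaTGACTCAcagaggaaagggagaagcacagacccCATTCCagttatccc
AGK: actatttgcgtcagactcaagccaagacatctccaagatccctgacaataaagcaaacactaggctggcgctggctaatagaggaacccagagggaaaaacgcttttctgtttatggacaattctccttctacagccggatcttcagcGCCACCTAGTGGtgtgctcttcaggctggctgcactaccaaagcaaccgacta
LUZP4: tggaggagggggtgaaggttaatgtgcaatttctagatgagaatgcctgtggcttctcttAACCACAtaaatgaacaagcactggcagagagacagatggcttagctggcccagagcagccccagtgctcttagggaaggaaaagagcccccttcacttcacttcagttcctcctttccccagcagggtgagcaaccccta
NEK11: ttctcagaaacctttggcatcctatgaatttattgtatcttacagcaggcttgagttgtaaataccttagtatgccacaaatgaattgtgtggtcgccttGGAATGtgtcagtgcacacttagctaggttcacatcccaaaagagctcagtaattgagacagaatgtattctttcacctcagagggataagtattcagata
DRP2: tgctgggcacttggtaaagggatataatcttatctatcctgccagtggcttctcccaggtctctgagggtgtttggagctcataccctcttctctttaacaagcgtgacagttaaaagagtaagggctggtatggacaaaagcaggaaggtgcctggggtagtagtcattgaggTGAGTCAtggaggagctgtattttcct

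Among the 9 libraries, the lists held 58626 to 85812 peaks, and the depth recovered from the lists ranged from 0.788 to 1.22 times that of the first shCtrl library. The shallowest library was the second of shEZH2, in which the rule required a peak. The first shE2F1 library was at 0.838 and the second was the deepest of all. Promoter peaks were listed in all 9 libraries at each of 8 genes that mark basal and mesenchymal breast cells, among them VIM, CD44, AXL and ZEB1, and in none at GATA3, PTPRC and ALB. Promoter peaks of the luminal genes ESR1, PGR, FOXA1, TFF1 and CDH1 were also listed, in 7 to 9 libraries, so promoter accessibility alone did not separate the lineages. The E2F1, EZH2 and SUZ12 promoters had a peak in all 9 libraries, and ATAC-seq gives no check of a knockdown, which acts on the RNA.

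The 616 regions were narrow and weak for peaks that recurred in 4 libraries. Their fold enrichment over the local background had a median of 5.73 in the first and 5.73 in the second shCtrl library, against 8.93 and 9.52 over all 46944 regions. The medians were 5.66 and 5.71 in the shEZH2 libraries, against 8.17 and 7.68. The merged regions had a median length of 382 bp, compared with 767 bp over all 46944. Since a weak peak is more easily left off a list, the calling threshold ties strength to the rule, and these values describe the regions without testing them. The 3519 regions with a peak in 1 of the shE2F1 lists lay in between, with medians of 6.45 and 6.94 in shCtrl and a length of 466 bp. Of the 616, 35 (5.68%) stood in the upper 50% of every shCtrl and shEZH2 list by fold enrichment, a count not made for the 46944. The median percentile of fold enrichment in the first shCtrl list was 35.1 for the 616 and 67.9 for the 46944. In the second shEZH2 list it was 30.2 against 58.8.

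**Figure D1:**
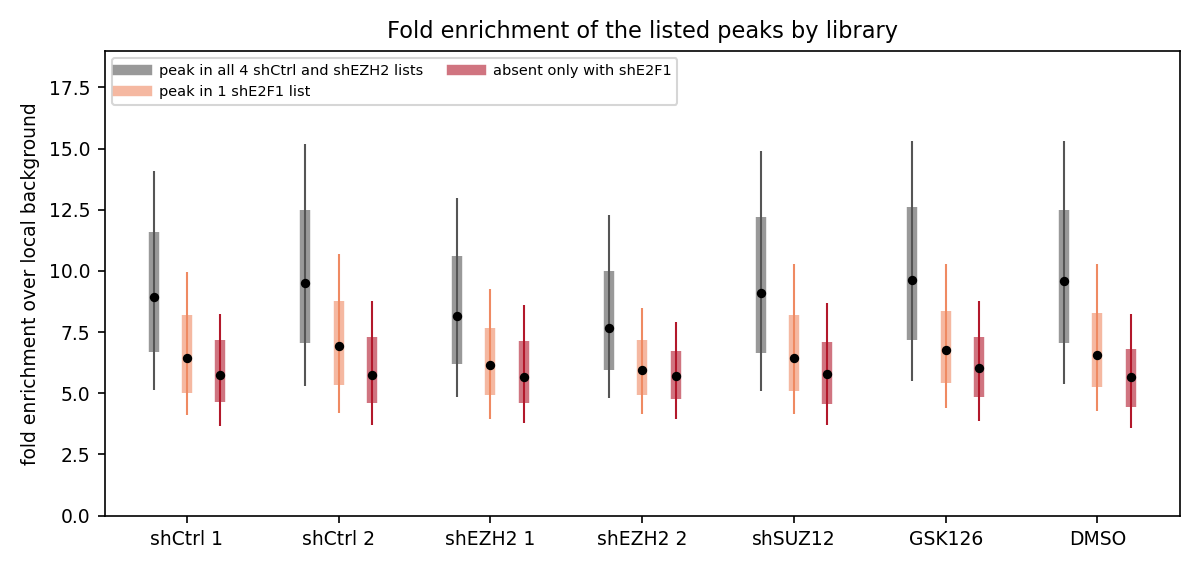
Fold enrichment over local background (y axis) of listed peaks in 7 libraries (x axis) for all regions with a peak in the 4 shCtrl and shEZH2 lists (grey), those with 1 shE2F1 peak (orange) and those absent only with shE2F1 (red). Dots are medians, thick bars span the 25th to 75th and thin lines the 10th to 90th percentile of regions, and the red medians lie between 5.66 and 6.05 in every library shown, below the grey ones.

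Depth was also set beside the strength of these peaks. The number of tags, that is of reads, at a summit follows from the fold enrichment of the peak together with its p. The regions had a median of 23 tags in the first shCtrl library and 18 in the second shEZH2 library. Scaled to the depth of the first shE2F1 library, the lowest of a region's 4 tag counts was at least 8 in 607 of the 616 regions, where 8 tags was the smallest number listed there on the most frequent background, and at least 2 times that number in 248 (40.3%). For the second shE2F1 library, whose smallest listed number was 9, the same held for all 616 regions, and 423 of them (68.7%) had at least 2 times that number. These tag counts come from regions selected for having a peak in those very lists. The numbers 8 and 9 apply to the most frequent background, and a region on a higher local background needs more tags. The region in an intron of APOO had 21 tags in the first shCtrl library at a −log10 q of only 2.49. The counts therefore do not show how many regions would have passed the shE2F1 threshold. The shE2F1 lists hold nothing below their threshold, so the signal that was left in the 616 regions with shE2F1 was not analysed here.

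The strongest of the 616 regions, ranked by the lowest of their 4 percentiles, were distant from promoters. The region that came first lay in an intron of MLLT3, which encodes a subunit of the super elongation complex, at chr9:20579590-20580243 and 42.7 kb from the TSS. Its fold enrichment was 10.4 and 13.0 with shCtrl and 10.7 and 10.4 with shEZH2. In the libraries that the rule did not use it was 5.79 with shSUZ12, 8.93 with GSK126 and 8.97 with DMSO, so each of the 3 listed the peak and the shSUZ12 value was the lowest of the 7. The second region (chr15:29278111-29279037) was nearest to NSMCE3, which encodes a subunit of the SMC5/6 complex, and lay in an intron of ENTREP2. It had folds of 13.8 and 10.6 with shCtrl and of 12.2 and 9.40 with shEZH2. The shSUZ12 value of 5.47 was again the lowest, beside 6.90 with GSK126 and 10.4 with DMSO.

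The intergenic region nearest to AGK, a mitochondrial lipid kinase, at chr7:141533250-141533642 and 18.0 kb from the TSS, was even across libraries. Its folds were 10.4 and 11 with shCtrl, 9.15 and 8.33 with shEZH2, 7.99 with shSUZ12, 9.78 with GSK126 and 9.33 with DMSO. By contrast, the region in an intron of GPD2, the mitochondrial glycerol-3-phosphate dehydrogenase, at chr2:156445630-156446226, was listed at 8.96, 10.0, 7.79 and 11.8 in the 4 libraries of the rule and at 8.61 with DMSO, and had no peak with shSUZ12 or GSK126. The highest −log10 q in the first shCtrl list, 46.6, belonged to an intergenic region 14.1 kb from the TSS of KLHL35 (chr11:75418687-75419375). This region reached a −log10 q of 35.0, 31.7 and 25.1 in the other libraries of the rule and of 45.4, 44.4 and 37.3 with shSUZ12, GSK126 and DMSO. It was 8.88 kb from the nearest shE2F1 peak. Of the 10 strongest regions, 7 had a peak in all 3 libraries that the rule did not use, and the regions nearest to EXOC2, GPD2 and FUT8 did not.

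**Figure D2:**
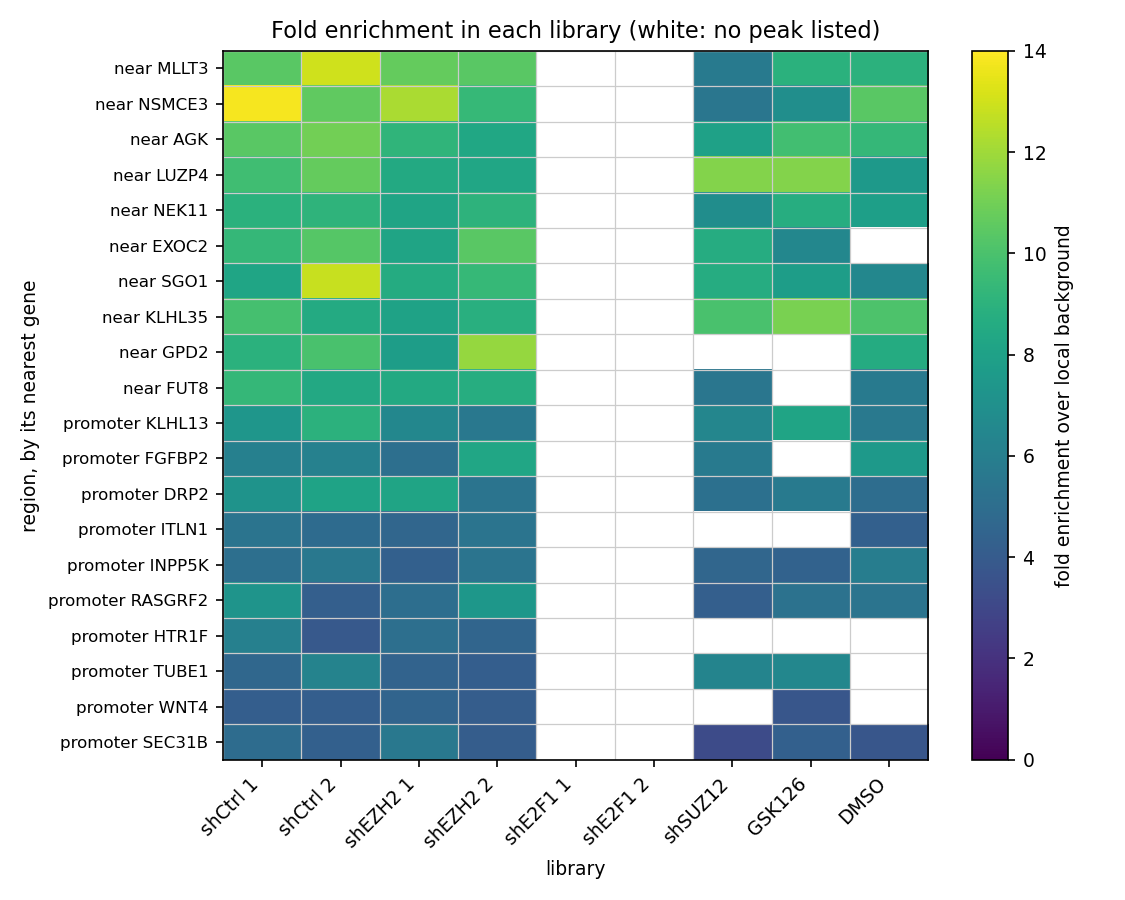
Fold enrichment over local background (colour) in the 9 libraries (columns) for the 10 strongest regions and the 10 strongest regions at promoters (rows, by nearest gene), with white where no peak was listed. The shE2F1 columns are white by the rule, and 7 of the upper 10 rows are filled for shSUZ12, GSK126 and DMSO.

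The libraries that took no part in the choice listed these regions less completely than other shared regions. A peak was present with DMSO in 436 of the 616 regions (70.8%, 95% Wilson interval 67.1 to 74.2), against 97.6% of the 46944 regions. With shSUZ12 it was 412 regions (66.9%, 63.1 to 70.5) against 95.8%, and with GSK126 it was 384 regions (62.3%, 58.4 to 66.1) against 96.2%. The intervals treat regions as independent and cover counting error only, and with 1 library per condition the conditions could not be tested against each other. The DMSO library is a second kind of control, in which neither E2F1 nor EZH2 was depleted, and it lacked a peak in 180 of the 616 regions.
All 3 libraries had a peak in 237 regions (38.5%), 2 of them in 201, 1 in 119 and none in 59 (9.58%). Over the 46944 regions these shares were 92.3% for all 3 and 0.473% for none. A peak with DMSO but with neither shSUZ12 nor GSK126 was found in 53 of the 616 regions (8.6%, against 0.792% of the 46944). The opposite, a peak with shSUZ12 and GSK126 but not with DMSO, was found in 55 (8.93%, against 0.963%).

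Since the sets differed in strength, the shares were also read within steps of −log10 q of the first shCtrl list. Of the 616 regions, 27 lay between 2 and 5, 224 between 5 and 10, 303 between 10 and 20, and 62 at 20 or above. In the step from 5 to 10, DMSO listed 62.1% (55.5 to 68.2) of the regions absent only with shE2F1 and 83.9% (82.5 to 85.2) of all shared regions. From 10 to 20 it listed 74.6% (69.4 to 79.2) against 94.6%. At 20 or above it listed 88.7% (78.5 to 94.4) against 99.8%. The shares rose with strength in both sets, and the intervals did not overlap in any of these 3 steps. In the lowest step, with 27 regions, the share was 59.3% (40.7 to 75.5) against 73.2% (67.1 to 78.6), and the intervals overlapped. The steps use the first shCtrl list alone and match the sets in strength only roughly. The top step has no upper end: −log10 q had a 90th percentile of 20 in the 616 regions and a median of 32.6 in all shared regions. The 616 were also chosen for lacking a peak in both shE2F1 lists, so their shares in other libraries are not free of the rule.

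The 2344 regions that were missing only with shEZH2, that is with a peak in both shCtrl and both shE2F1 lists, were set beside them. They share the shCtrl libraries with the 616. DMSO listed 77.8% (76.1 to 79.5) of them, shSUZ12 63.2% (61.3 to 65.2) and GSK126 63.8% (61.9 to 65.7). For shSUZ12 and GSK126 the intervals overlapped those of the 616 regions. For DMSO they did not, and in the step from 5 to 10 the share was 73.4% (70.6 to 76.0) against 62.1%, and in the step from 10 to 20 it was 82.7% (80.1 to 84.9) against 74.6%. At 20 or above the share was 91.1% against 88.7% and from 2 to 5 it was 58.2% against 59.3%, with intervals that overlapped in both steps. Regions with a peak in 1 shE2F1 list had a DMSO peak in 88.8%.

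**Figure D3:**
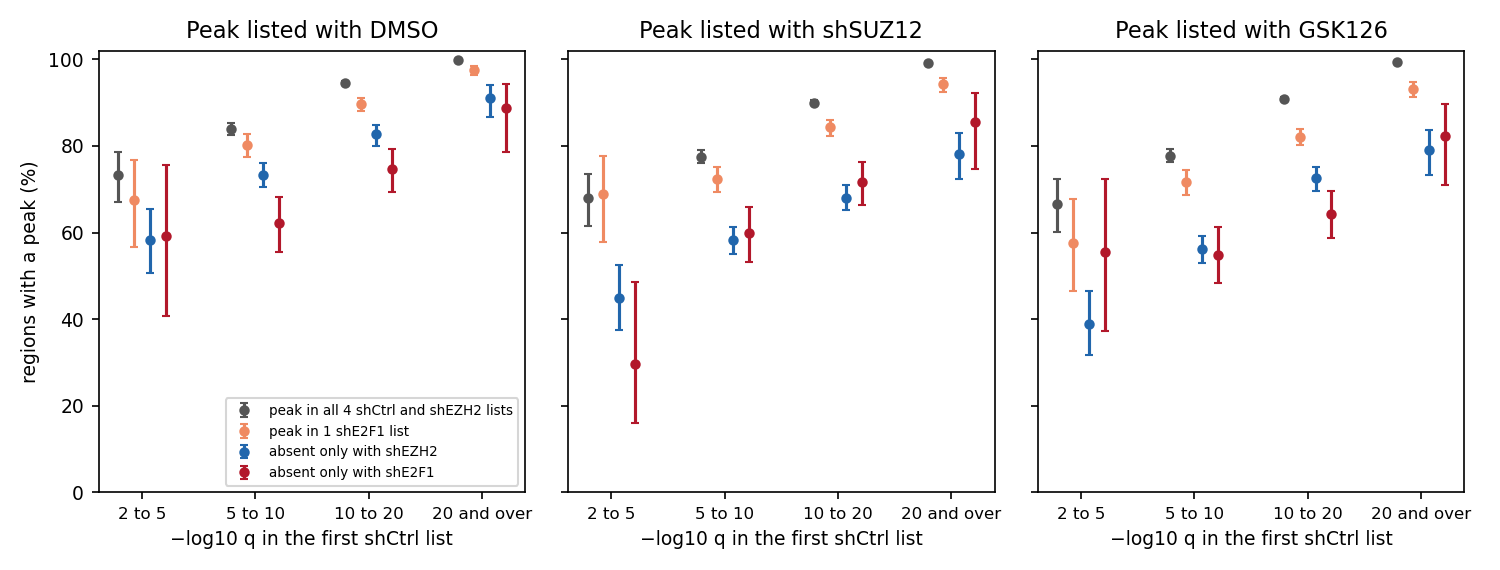
Share of regions with a listed peak (y axis, %) with DMSO, shSUZ12 and GSK126 (panels) in steps of −log10 q of the first shCtrl list (x axis) for 4 sets of regions, with 95% Wilson intervals over regions. Regions absent only with shE2F1 (red) lie below all regions with a peak in the 4 shCtrl and shEZH2 lists (grey) in every step of every panel.

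In those libraries the listed peaks were weak as well. The median fold enrichment was 5.67 with DMSO (436 regions), 5.79 with shSUZ12 (412 regions) and 6.05 with GSK126 (384 regions), against 9.57, 9.12 and 9.65 over the shared regions with a peak in the same library. In the DMSO list 83 of the 436 stood in the upper 50% of all peaks by fold enrichment, a count not made for the shared regions. The median percentile in that list was 29.1 for the 436 and 67.5 for the shared regions with a DMSO peak.

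The regions lay mainly in introns and between genes. Each region was given a single place, first promoter by overlap of the region, then exon and then intron by its summit. Introns of protein-coding genes held 272 of the 616 (44.2%, 40.3 to 48.1) and introns of lncRNA genes 76 (12.3%), while 214 (34.7%) were intergenic and 27 (4.38%) had their summit in an exon. Promoters, taken as 1 kb on either side of a protein-coding TSS, held 27 regions (4.38%, 3.03 to 6.30), against 24.4% of the 46944 shared regions. The promoter share was also low in the regions with 1 shE2F1 peak (6.08%, 5.34 to 6.92) and in those absent only with shEZH2 (4.69%, 3.91 to 5.63), and both intervals overlapped that of the 616. The median distance from summit to the nearest TSS was 39.2 kb, compared with 22.7 kb, and 157 regions (25.5%) were over 100 kb away, compared with 18.6%. Outside promoters the median distances were closer together, 44.8 kb for the 589 regions and 40.2 kb for the shared ones. The GC content of the 201 bases at the summit had a median of 48.3% in the 616 regions and 54.2% in the shared regions. Outside promoters it was 48.3% and 50.7%.

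**Figure D4:**
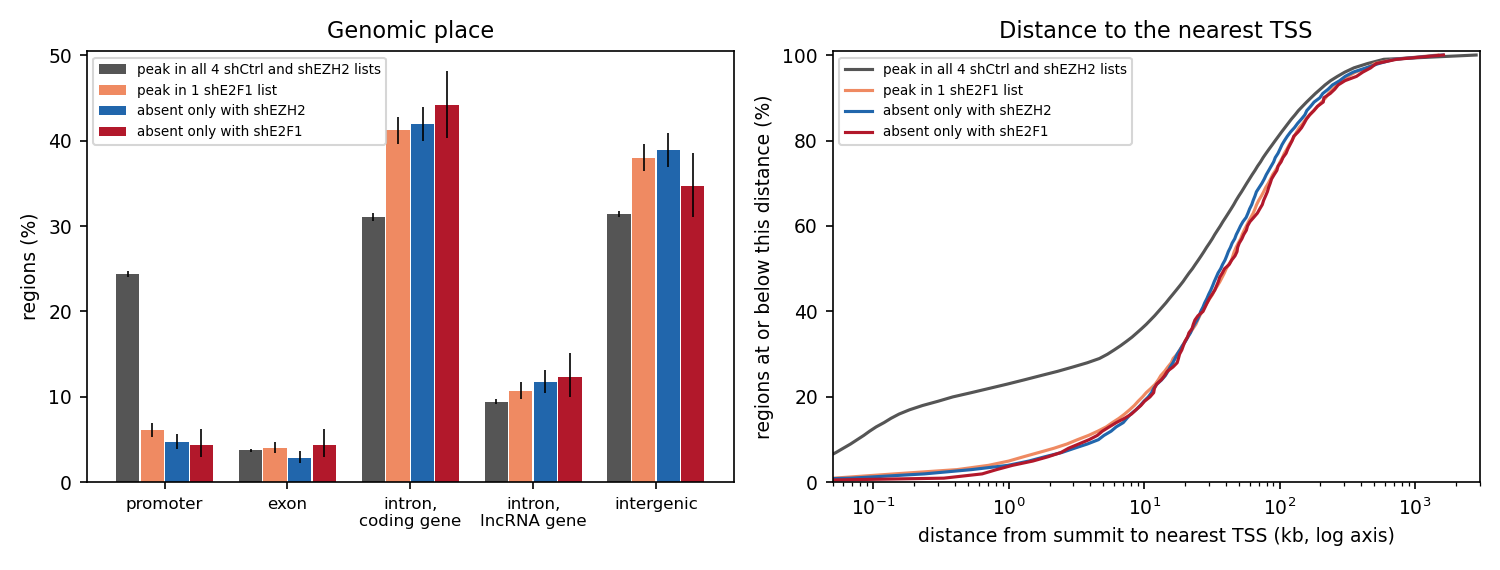
Left, share of regions (y axis, %) by genomic place with 95% Wilson intervals; right, cumulative share of regions by distance from the summit to the nearest TSS (kb, log axis). Regions absent only with shE2F1 (red) have 4.38% at promoters against 24.4% of all regions with a peak in the 4 shCtrl and shEZH2 lists (grey), and their distance curve runs close to those of the other missing sets.

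The promoter regions were the weakest of the 616, with a median of 3.84 for the lowest of their 4 percentiles, compared with 20.8 in introns of protein-coding genes and 22 between genes. None of the 27 stood in the upper 50% of all 4 lists. A shE2F1 peak lay within 1 kb of 13 of the 27 (48.1%), so that in those cases a part of the same neighbourhood was still listed as accessible with shE2F1. Among intergenic regions this held for 44 of 214 (20.6%). Over all 616 regions, 144 had a shE2F1 peak within 1 kb and 55 within 300 bp, and the median distance to the nearest one was 3.83 kb.

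The promoter region with the highest rank belonged to KLHL13, which encodes an adaptor of a ubiquitin ligase that acts in mitosis, at chrX:118116560-118117739. It had folds of 7.33 and 8.99 with shCtrl and 6.49 and 5.60 with shEZH2, was listed at 6.43 with shSUZ12, 8.20 with GSK126 and 5.67 with DMSO, and was 108 kb from the nearest shE2F1 peak. The region at the promoter of DRP2, a dystrophin-related protein, was listed at 7.17 and 8.12 with shCtrl, at 8.15 and 5.40 with shEZH2, and at 5.15, 5.69 and 5.02 with shSUZ12, GSK126 and DMSO. Both genes had a peak in all 7 libraries outside shE2F1. The region at the promoter of RASGRF2, an exchange factor for Ras and Rac (chr5:80960618-80961431), was also listed in all 7, with folds from 4.22 to 7.42, and so were those of INPP5K and SEC31B. At WNT4, a ligand of the Wnt pathway (chr1:22141947-22142721), the folds were 4.17 and 4.20 with shCtrl and 4.53 and 4.14 with shEZH2, and of the other libraries GSK126 alone listed a peak, at 3.76. HTR1F, a serotonin receptor, had values of 6.09, 3.90, 5.09 and 4.57, with no peak in any of the 3. The remaining regions of the 10 lay at FGFBP2, ITLN1 and TUBE1.

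The letters of 12 transcription factor motifs were then searched on either strand within 100 bp of the summit. The AP-1 site was taken as TGANTCA and the RUNX site was taken as TGTGGTT, while TEAD was searched as GGAATG and SP as GGGCGG. E2F was taken as TTTCCCGC or alternatively as TTTGGCGC or alternatively as TTTCGCGC or alternatively as TTTGCCGC, and CTCF was searched by its core. None of these contains another. A match is a run of letters and not a bound site. Among the 616 regions, 192 (31.2%, 27.6 to 34.9) held an AP-1 match, 118 (19.2%) a TEAD match, 76 (12.3%, 9.97 to 15.2) a RUNX match and 27 (4.38%) a CTCF match. Over all 46944 shared regions the shares were 35.0% (34.5 to 35.4) for AP-1, 17.5% for TEAD, 6.90% (6.67 to 7.13) for RUNX and 3.95% for CTCF. The AP-1 intervals overlapped and the RUNX intervals did not. None of the 12 was found in 160 of the 616, a count not made for the shared regions.

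Because promoters differ in base composition and made up different shares of the sets, motif shares were read outside promoters. AP-1 matches were fewer in the 589 regions than in the shared ones (31.9%, 28.3 to 35.8, against 44.5%, 43.9 to 45). This share was also below those in regions with 1 shE2F1 peak (38.2%, 36.5 to 39.8) and in regions absent only with shEZH2 (39.1%, 37.1 to 41.1). RUNX matches went the other way, with 12.9% (10.4 to 15.9) of the 589 regions against 8.55% (8.26 to 8.85) of the shared ones. The regions with 1 shE2F1 peak had 9.02% (8.09 to 10.0), whose interval ended below that of the 589. The regions absent only with shEZH2 had 9.49% (8.34 to 10.8), and that interval overlapped. The RUNX share was 12.6% (10.0 to 15.8) against 7.49% (7.02 to 8.0) where −log10 q lay between 5 and 20, and 14.5% (11.4 to 18.2) against 10.1% (9.67 to 10.5) where the GC content lay between 40 and 55%. In the same 2 strata AP-1 had 31.6% (27.7 to 35.8) against 38.8% (37.9 to 39.7) and 34.9% (30.4 to 39.6) against 51.0% (50.3 to 51.7). The strata were chosen after the data were seen, and RUNX was picked out of 12 motifs by its values. SP, a letter run of GC-rich promoters, was found in 5.26% (3.73 to 7.37) against 12.7% (12.4 to 13.1). TEAD (19.9% against 20.9%), CEBP (9.0% against 8.16%), SOX (14.8% against 13.7%) and CTCF (4.41% against 4.92%) had intervals that held the share of the shared regions.

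E2F matches were rare in all sets. They were found in 3 of the 616 regions (0.487%, 0.166 to 1.42), against 1.27% (1.17 to 1.37) of the 46944. Outside promoters the shares were 0.509% (0.173 to 1.49) and 0.676% (0.596 to 0.767), and the intervals overlapped. The CRE letters were found in 0 of the 589 regions outside promoters (0 to 0.648%), against 0.507% of the shared ones, a share within that interval. Among the 237 regions with a peak in each of shSUZ12, GSK126 and DMSO, RUNX matches stood at 12.7% (9.01 to 17.5) and AP-1 matches at 24.1% (19.1 to 29.9). These 237 include 14 promoter regions, and the shares of the matching shared regions were not computed. RUNX matches were present in the region in the intron of MLLT3 and in those nearest to LUZP4, CDK1, WWC1, CDH6 and TNFSF10. Of the 76 regions with a RUNX match, 27 also held an AP-1 match.

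**Figure D5:**
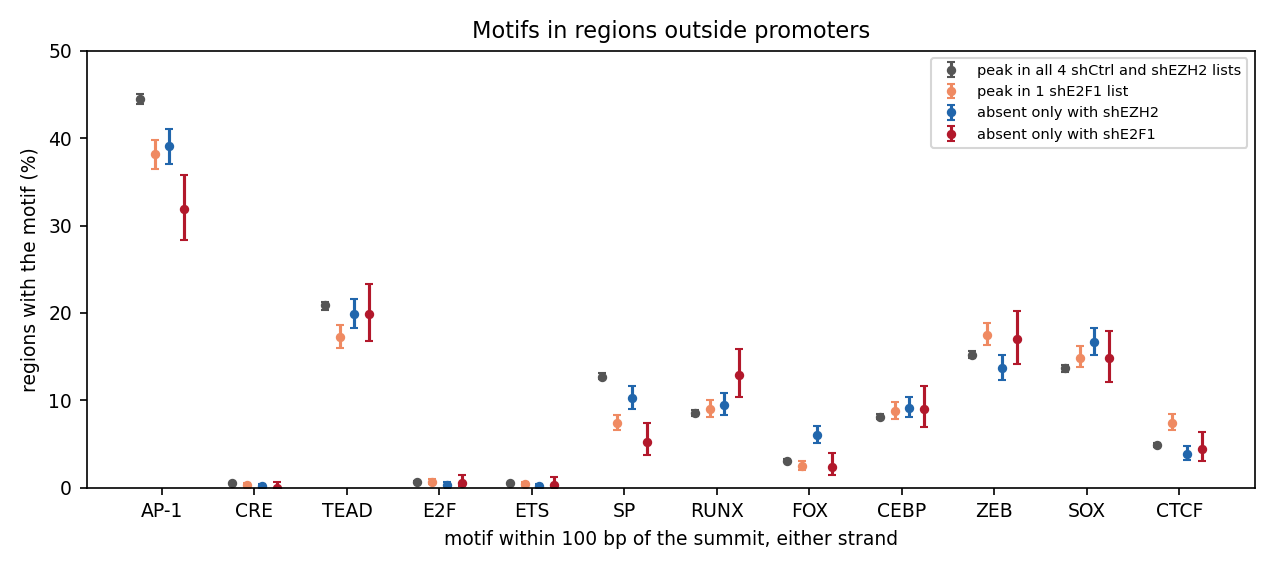
Share of regions outside promoters (y axis, %) that hold each of 12 motifs (x axis) within 100 bp of the summit, for 4 sets of regions, with 95% Wilson intervals over regions. Regions absent only with shE2F1 (red) have the lowest share of AP-1 matches, 31.9%, and the highest share of RUNX matches, 12.9%, of the 4 sets.

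Nearest genes were spread widely: the 616 regions were nearest to 585 protein-coding genes, of which 557 had 1 region, 25 had 2 and 3 had 3. Genes of 12 lists were looked up, and 38 regions (6.17%) were nearest to a listed gene, against 5.92% of the shared regions. Among 66 genes of DNA replication and known E2F targets, 1 region was nearest to a listed gene (0.162% against 0.296% of the shared regions) and none lay at a promoter, while 67 of the shared regions lay at promoters of these genes and 65 of them had a peak in both shE2F1 lists. Among 55 genes of mitosis 2 regions were nearest to a listed gene (0.325% against 0.279%) and none lay at a promoter, compared with 56 shared promoter regions, and 55 of these were listed in the 6 libraries. For DNA repair there were 0 regions (against 0.275%), and for the 15 genes of PRC2 and its partners 0 as well (against 0.143%), where all 14 shared promoter regions had a peak in both shE2F1 lists. A count of 0 among the 616 regions allows a share of up to 0.487%. The promoter counts of 67, 56 and 14 are out of all 46944 shared regions, and each is a smaller share than that. The counts of 0 therefore do not set these lists apart from the shared regions.
The region of the replication list lay in an intron of LIG1, which encodes the ligase that joins replicated DNA strands, 17.6 kb from the TSS (chr19:48152556-48152881). Its folds were 5.36 and 5.74 with shCtrl, 5.38 and 4.86 with shEZH2, and 7.11 with DMSO, and no peak was listed with shSUZ12 or GSK126. In the mitosis list, the region nearest to CDK1, the kinase that drives entry into mitosis, was 115 kb from its TSS and intergenic (chr10:60662928-60663600). It had folds of 13.7 and 13.2 with shCtrl, 7.58 and 6.64 with shEZH2, 8.37 with shSUZ12, 12.2 with GSK126 and 7.53 with DMSO. Both shEZH2 values were below both shCtrl values there, and a shE2F1 peak lay 0.989 kb away. The region nearest to SGO1, which protects centromeric cohesion, was 482 kb from the TSS.

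The lists of growth factors and of matrix and adhesion genes held the most regions, 9 each. The 71 receptor tyrosine kinase and growth factor genes took 1.46% of the 616 regions, against 0.809% of the shared ones, and the 88 matrix and adhesion genes took 1.46% against 0.982%. ROR1, a receptor-like kinase of Wnt signalling, had 2. A region in an intron of NTRK2, the receptor of BDNF, had 8.24 and 8.12 with shCtrl and 9.12 and 6.92 with shEZH2, and a region in an intron of TGFA, an EGFR ligand, had 7.09, 6.73, 6.52 and 6.65. Neither was listed with shSUZ12, GSK126 or DMSO, so their peaks were seen in the libraries of the rule alone. Single regions were nearest to VEGFA, GAS6 and KDR. Those of the matrix list were nearest to TIMP3, CDH6, COL4A2, ADAM12, ITGB1, CDH13, COL6A3, THBS2 and ITGB6.

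The YAP and TEAD list, genes of the Hippo pathway and its targets, had 5 regions among 35 genes (0.812% against 0.554%). It held the 1 region at a promoter of any listed gene, at CCN2, a matricellular growth factor and target of YAP (chr6:131949971-131950738). Its folds were among the lowest, 2.72 and 2.94 with shCtrl, 2.56 and 2.65 with shEZH2, 2.63 with GSK126 and 2.22 with DMSO, while shSUZ12 had 5.02. The −log10 q was 54.1 with shSUZ12 and 6.37 to 13.2 elsewhere, and a shE2F1 peak lay 0.460 kb away. Other regions of this list were in introns of WWTR1, the YAP paralogue TAZ (51.9 kb from the TSS), and MYOF, and were nearest to WWC1 and TEAD1. The EMT list had 4 regions (0.649% against 0.556%), 2 of them nearest to VIM and 1 each to ZEB2 and TGFBI, and the list of developmental transcription factors had 6 (0.974% against 1.28%), the strongest nearest to MSX2, with folds of 7.95, 8.44, 7.46 and 8.58 in the libraries of the rule and 6.83, 8.71 and 8.0 with shSUZ12, GSK126 and DMSO. An intron of NFKB1 held the 1 region of the NF-kB list (0.162% against 0.302%), and an intron of TNFSF10 (TRAIL) held the 1 region of the apoptosis list (0.162% against 0.358%). The AP-1 family list had 0 regions, against 0.243% of the shared ones, a share below the 0.487% that a count of 0 allows.

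For 80 of the 616 regions another of the 616 lay within 200 kb, a count with no matching one for the shared regions. There were 3 windows of 200 kb that held 3 regions. These were on chromosome 11 around GRIK4, a kainate receptor subunit (chr11:120424433-120590847), on chromosome 19 between CEACAM3 and ARHGEF1 (chr19:41795035-41895143), and on chromosome 4 at the end of RAPGEF2, an activator of Rap GTPases (chr4:159358316-159416484). The same windows held 15, 8 and 8 shared regions in all. At RAPGEF2 the 3 regions had folds of 4.03 to 8.25 in the libraries of the rule, and none had a peak with GSK126. The third gene with 3 regions was TRIM32, which lies within ASTN2, and all 3 were in introns of ASTN2. ADCY8, first by name of the genes with 2, had both in its introns.
By chromosome, the 616 regions made up 2.31% (1.61 to 3.30) of the shared regions on X, 2.44% (1.60 to 3.70) on chromosome 13 and 1.77% (1.39 to 2.25) on chromosome 2, whose intervals lay above the genome-wide 1.31%. On chromosomes 8 and 17 the shares were 0.76% (0.445 to 1.3) and 0.755% (0.478 to 1.19), and the intervals ended below it. These chromosomes were picked by their values out of chromosomes 1 to 22 and X, and the shares were not read outside promoters.

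At the edge of the rule, 95 of the 616 regions had a −log10 q under 5 in at least 1 of the 4 libraries and 7 had one under 3. The 3 weakest were in an intron of APOO (lowest −log10 q 2.49), nearest to C6orf118 (2.72) and at the promoter of WSB2 (2.76). On the other side, the 3 regions kept out by the weakest shE2F1 peak were nearest to FAM167B, CDH4 and SNTB1, with a −log10 q of 2.09, 2.49 and 2.62 in the second shE2F1 library. Of the 3519 regions kept out by a single shE2F1 peak, 3112 had it in the second, deeper library and 407 in the first, and in 130 that peak had a −log10 q under 5.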

How the data were processed

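ATAC-seq peaks were listed by the authors for each of the 9 libraries separately. Reads were aligned with Bowtie2, with no version stated for ATAC-seq, and shifted for the Tn5 cutting position, and the caller is not named. The deposited lists give a score (−log10 q times 10 with its decimals dropped, in at least 99.91% of peaks), a fold enrichment over local background, the −log10 of p and of q, and, per the file format, the summit offset as another deposited column. Coordinates lay within GRCh38, the build of the labels.

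Peaks were merged at 1 bp with Python 3.11.15, numpy, pandas, scipy and pysam, and nearest genes were taken from 20033 canonical protein-coding transcripts of GENCODE v44. Summits, the strongest first shCtrl peak by p, gave place outside promoters, nearest gene and motifs. Depth is the most frequent background mean recovered from fold and p, and 100% of peaks with −log10 p under 250 fitted whole tags within 0.002. Read counts were not used here, so no differential test was made. The scripts were checked on simulated lists. The members, gene lists, named regions (by the lowest of 4 percentiles of fold enrichment, by promoter, by list, by genes and windows with most members, and at the edge of the rule) and motifs were chosen with earlier results of these data known. Some of the named regions are not reported here.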

Additional observations from a re-analysis of the deposited data

How the results depend on the processing

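The number of regions absent only with shE2F1 was 616 and ranged from 778 to 3759 when 1 of the 6 libraries was left out. It was 3759 without the second shE2F1 library, 1025 without the first and 1645 without the second shEZH2 library. It stayed within 1.5 times of 616 under a −log10 q of at least 5 (627), a 100 bp overlap (617), summit windows (650) and no shE2F1 peak within 1 kb (472). With lists cut to equal length it was 902, and of the 616 regions 233 (37.8%) were still among them. Leaving out 1 library, the share with a peak ranged from 62.7 to 86.4% for DMSO, 52.6 to 79.4% for GSK126 and 60.6 to 81.4% for shSUZ12, the share at promoters from 4.47 to 6.93%, the median fold with shCtrl from 5.45 to 6.60, and the share of AP-1 from 28.4 to 35.8%, of RUNX from 8.78 to 12.4% and of E2F from 0.514 to 0.878%. With lists of equal length GSK126 had 72.2%, shSUZ12 74.1%, promoters 7.43%, AP-1 35.7% and the median fold was 7.16. The AP-1 share of 35.8% and the RUNX share of 8.78% came without the second shE2F1 library. Over all 46944 shared regions of the main setting the shares were 35.0% for AP-1 and 6.90% for RUNX. AP-1 was thus not below that value without the second shE2F1 library or with equal lists. The shared regions were not searched again in those settings. The median fold was 5.87 and 5.94 with a −log10 q of at least 5 in every list or in shCtrl and shEZH2, 6.01 with no shE2F1 peak within 1 kb and 5.79 in summit windows. Promoters were 2.97% with no shE2F1 peak within 1 kb, 6.31% in summit windows and 15.7% for any transcript, against 38.1% of the shared regions. Within 50 bp, AP-1 was at 23.2% against 25.9%, RUNX at 7.79% against 4.15% and E2F at 0.162% against 0.688%. The cause of these shifts was not tested. No paired analysis was possible because the results come from no test.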
